A study of Homo sapiens with 15 samples.

Results

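The genes described here encode the Wnt ligands, the proteins that bind them at the cell surface or hold them back, and the TCF/LEF factors at the end of the pathway. They were chosen by name: every non-control array probe whose RefSeq accession belongs to a WNT, FZD, DKK, SFRP, LRP5 or LRP6, AXIN, TCF7-type or LEF1, RSPO, PORCN, WIF1, NKD or LGR4 to LGR6 gene was taken, a rule that uses no measured value. This gave 66 of the 42405 probes and 56 of the 19483 genes that could be named. The cells were PE/CA-PJ41, an established line from a human oral squamous cell carcinoma, transfected with the pCMV6-Neo plasmid and selected in G418. By the labels NCE cells carried the empty vector (the study elsewhere calls its NCE control un-transfected), and CYGB+ cells carried the vector with the human cytoglobin cDNA and were a single clone, so a difference between the groups may belong to the clone. RNA was extracted from untreated cells on 3 occasions, and the labels give 3 biological replicates per group, hybridised on 9 NCE arrays and 6 CYGB+ arrays.

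Wnt ligands are lipid-modified by porcupine, leave the cell with the carrier WLS and bind frizzled receptors (FZD) together with the co-receptors LRP5 and LRP6. Binding stops the destruction complex, built on axin, from degrading β-catenin, which then enters the nucleus and works with TCF/LEF factors on target genes. DKK, SFRP and WIF1 proteins hold the signal back outside the cell, while R-spondins and their LGR receptors keep frizzled at the surface. In squamous epithelium the pathway is known for its part in growth and in the upkeep of basal cells.

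Of the 19 Wnt ligands 11, and of the 9 secreted inhibitors 7, were too dim to test in these cells, whereas 11 of the 12 frizzled and LRP genes were above background on every array. Between the groups, TCF7 and LEF1 were higher in the samples labelled CYGB+, and DKK3, FZD7, PORCN, LGR4 and TCF7L1 were lower, with folds of 1.95 to 3.35. No ligand passed the test by its representative probe. AXIN2, a widely used read-out of β-catenin activity, was above background on 1 of 15 arrays.

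All values are log2 normalized signal of the green channel, quantile normalized over the arrays and averaged over the arrays of each replicate. A difference is CYGB+ minus NCE with its standard error (SE), and a gene is called when its adjusted p (limma, Benjamini-Hochberg over all 22328 probes tested) was below 0.05. Signals of different probes are not on one scale, so levels are compared between samples and not between genes. A probe was tested when it was well above background on at least 6 of the 15 arrays. By that rule 30 of the 56 genes were tested, 26 of them were above background on every array, and 17 of the 56 were above background on none.

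Some features of the arrays bear on every value. Slide 1 held 8 NCE arrays, and slide 2 held the third array of NCE replicate 1 with all 6 CYGB+ arrays, so the group comparison runs mostly between slides. Called genes, and others whose difference moved clearly, are therefore also given with slide as a block, and the called genes within slide 2, where a single NCE array stands for its group. Probes above background made up 48.9% to 57.3% of each array. The median correlation of an array with the others was 0.905 for array 1 of CYGB+ replicate 1, which stood apart, 0.951 for array 2 of NCE replicate 3 and at least 0.960 for the other arrays. Without the array that stood apart, the same 7 genes stayed called as with it, and FZD4 and WNT3 were called too, against 18.1% of all named genes.

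The array's probe for CYGB, the transfected gene, did not separate the groups. The CYGB probe read 12.85, 13.16 and 12.96 in NCE replicates 1 to 3 and 12.37, 13.42 and 13.01 in CYGB+, a difference of -0.05 (SE 0.27, adjusted p = 0.92), and it was above background on every array. Where this probe lies relative to the transfected cDNA is not given in the sources used here. The study describes the parent PE/CA-PJ41 line as not expressing cytoglobin, and its array clone as expressing a high level, measured by qPCR and in-cell ELISA. The signal of this probe in NCE is at odds with that description of the parent line, and the reason was not tested. The probe alone therefore does not show whether the transgene was expressed. The labels put every sample in Cy3, while the study's methods name cyanine 5 for control and cyanine 3 for cytoglobin cells. The green channel was read for both groups because the deposited value table follows it on every array. The groups are therefore named as labelled throughout, and each direction rests on the labels.

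The labelled cell type was checked against its markers. All 8 squamous markers (such as KRT5, KRT14 and TP63) were above background on every array and none was called, with a summed level of 16.39 to 16.46 in NCE and 16.2 to 16.72 in CYGB+. None of the 4 endothelial and 1 of the 4 leukocyte markers (CD14) was above background on every array. Of 6 fibroblast markers 3 were above background on no array and 1, COL1A2, on every array, and COL1A2 fell by 2.53 (SE 0.21, adjusted p = 0.0021). COL1A1, the other fibroblast marker tested, differed by 0.23 (SE 0.39, adjusted p = 0.74). The summed fibroblast marker level was 8.63 to 8.92 in NCE and 6.86 to 7.37 in CYGB+. In NCE that sum came mostly from COL1A2, at 8.54, 8.44 and 8.36 in replicates 1 to 3. The part of the summed level in the results below was not tested. In bulk RNA, fewer cells of a type and less RNA per cell cannot be told apart.

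**Figure D1:**
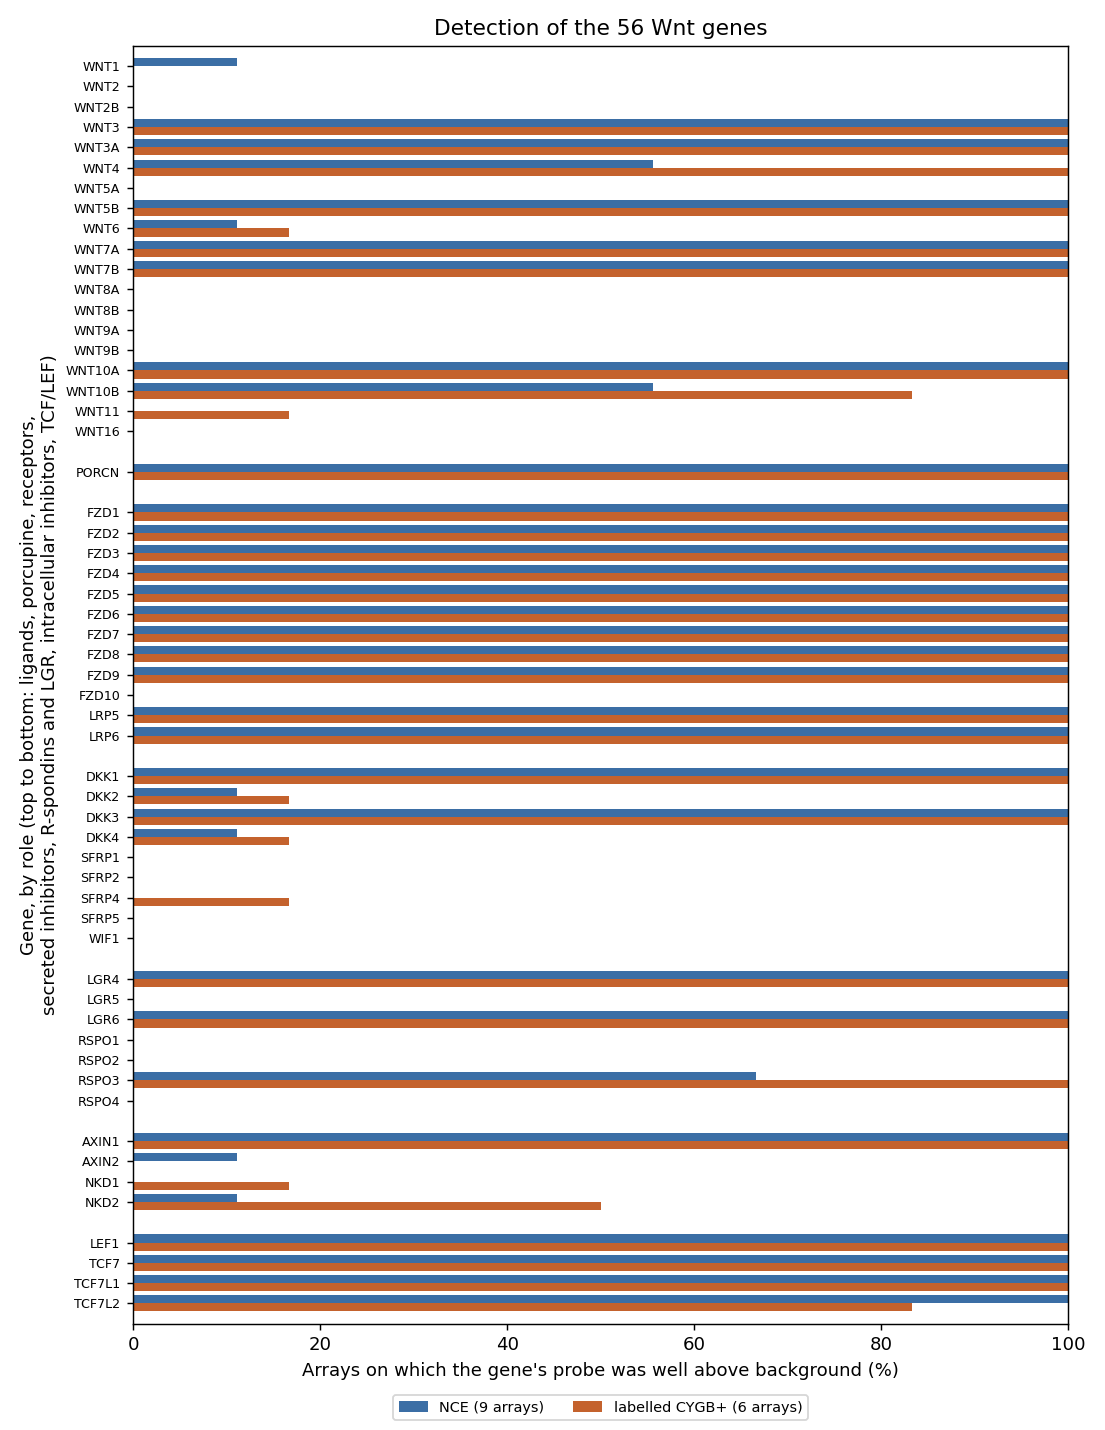
Share of arrays (%, horizontal axis) on which the representative probe of each of the 56 genes was well above background, for the 9 NCE arrays and the 6 arrays labelled CYGB+. Nearly all receptors and all 4 TCF/LEF factors were detected, and 17 genes, among them 8 ligands and 4 secreted inhibitors, have no bar in either group.

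Of the 30 tested genes, 7 were called, 2 higher and 5 lower, and 23 were not. Across all 12885 named genes tested, 9.06% were called, 4.49% higher and 4.58% lower. The median difference was -0.06 over the 30 genes and -0.003 over all named genes tested. The 3 replicates of one group lay wholly outside those of the other for 19 of the 30 genes, and 36.5% of all named genes did so. On single arrays 8 of the 30 genes separated without overlap, the 7 called genes and DKK1, and 13% of all named genes did.

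**Figure D2:**
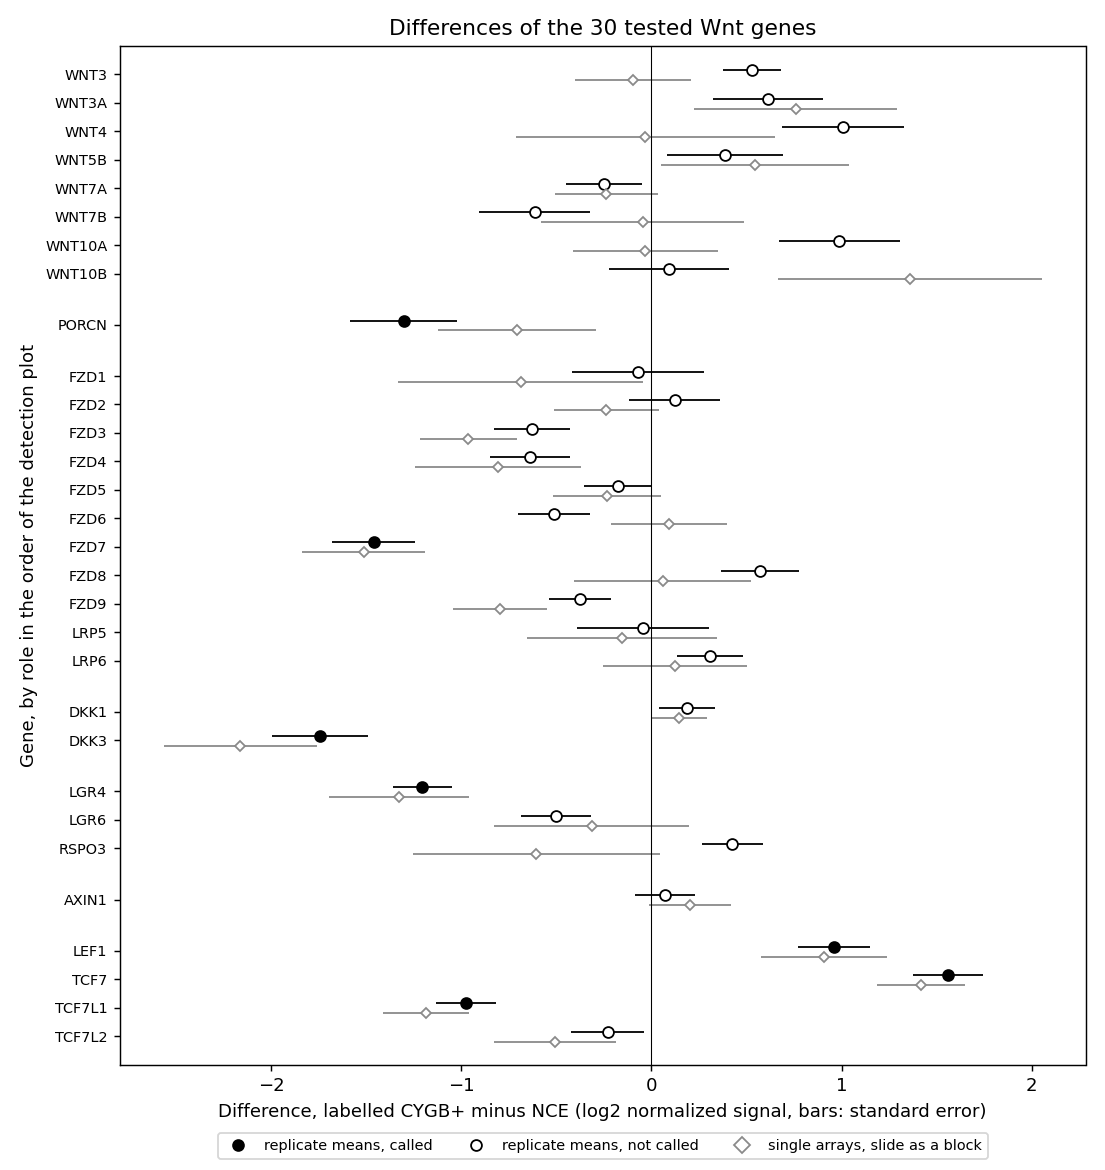
Difference between samples labelled CYGB+ and NCE (log2 normalized signal, bars are standard errors) for the 30 tested genes in order of role; circles are from replicate means (filled where called) and diamonds from single arrays with slide as a block. The called genes keep their side of 0 under both fits, while WNT3, WNT4, WNT10A, RSPO3, FZD2 and FZD6 change sides.

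The ligands detected were WNT3, WNT3A, WNT5B, WNT7A, WNT7B and WNT10A, each above background on all arrays, with WNT4 and WNT10B dimmer. WNT3, WNT3A, WNT7A, WNT7B, WNT10A and WNT10B are known mainly as activators of the β-catenin branch, and WNT5B as a ligand of β-catenin-independent signalling. The other 11 ligands (WNT1, WNT2, WNT2B, WNT5A, WNT6, WNT8A, WNT8B, WNT9A, WNT9B, WNT11 and WNT16) were not tested, and WNT2, WNT2B, WNT5A, WNT8A, WNT8B, WNT9A, WNT9B and WNT16 were above background on no array. None of the 8 tested ligands was called, and their median difference was 0.46.

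WNT4 and WNT10A had the largest ligand differences among representative probes, and neither difference remained with slide as a block. WNT10A read 8.01, 6.91 and 7.0 in NCE and 8.61, 8.25 and 8.02 in CYGB+, a difference of 0.99 (SE 0.32, adjusted p = 0.10). WNT4 read 5.21, 4.36 and 5.12 in NCE and 6.47, 5.48 and 5.76 in CYGB+, a difference of 1.01 (SE 0.32, adjusted p = 0.099). The groups did not overlap for either gene. With the replicate number as a block both were called (adjusted p = 0.029 for WNT10A and 0.024 for WNT4), against 11.8% of all named genes, but with slide as a block the differences were -0.03 for each (SE 0.38 for WNT10A and 0.68 for WNT4). WNT10A was called under 3 of 18 alternatives and WNT4 under 1 of 17.

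NCE replicate 1 was hybridised on both slides, so its slide 2 array can be set beside its own slide 1 arrays, although a slide and a single array cannot be told apart here. Its WNT10A signal was 7.74 and 7.75 on slide 1 and 8.53 on slide 2, inside the 7.75 to 8.90 spanned by the 6 CYGB+ arrays. Its WNT4 signal was 4.75 and 4.92 on slide 1 and 5.96 on slide 2, also inside the CYGB+ range of 4.85 to 6.77. WNT3 behaved alike, with 10.26 and 10.24 on slide 1 and 11.07 on slide 2. Arrays of one NCE replicate on slide 1 spanned up to 0.35 for WNT10A, 0.62 for WNT3 and 1.43 for WNT4, so the rise on slide 2 was outside that spread for WNT10A (0.78) and WNT3 (0.82) and inside it for WNT4 (1.13).

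In all, WNT3 read 10.52, 10.51 and 10.49 in NCE and 11.20, 10.96 and 10.96 in CYGB+ (difference 0.53, SE 0.15, adjusted p = 0.074), and the difference was -0.10 (SE 0.31) with slide as a block. It was called, at 0.42 (adjusted p = 0.044), without the array that stood apart. Under normexp background correction on all arrays it was called too, also at 0.42 (adjusted p = 0.030). Across all probes tested, the median absolute shift of NCE replicate 1 between its slide 2 array and its slide 1 arrays was 0.24, against a median absolute group difference of 0.31. For the called genes this shift ran from -0.52 for PORCN to 0.58 for DKK3, smaller in size than their group differences.

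**Figure D3:**
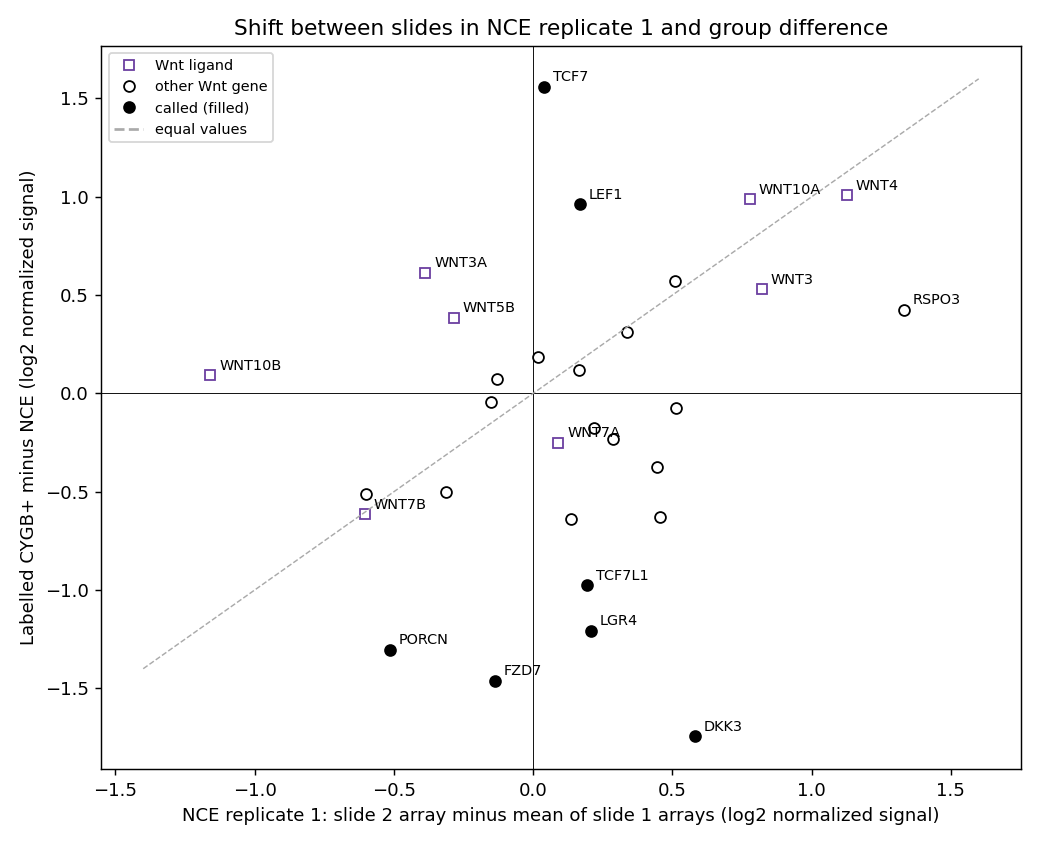
Shift of NCE replicate 1 between slides (horizontal axis, log2 normalized signal) and difference between groups (vertical axis) for the 30 tested genes, with ligands as squares and called genes filled; the slide 2 array also enters the NCE mean, so the axes share it. WNT4, WNT10A and WNT3 lie at positive shifts of 0.78 to 1.13, near the dashed line of equal values, whereas TCF7 and LEF1 lie far above it and TCF7L1, LGR4, FZD7 and DKK3 far below.

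The WNT3A probes disagreed. The representative probe, above background on all arrays, read 6.31, 6.17 and 5.75 in NCE and 7.26, 6.61 and 6.20 in CYGB+, with overlapping groups and a difference of 0.61 (SE 0.29, adjusted p = 0.23). The other probe read 3.89, 3.65 and 4.47 in NCE and 6.96, 7.19 and 6.80 in CYGB+, a measured difference of 2.98. That probe was above background on 2 of the 9 NCE arrays and on all 6 CYGB+ arrays, and it entered the test through the latter alone, so the value is a description. It was 1.94 with slide as a block (SE 0.61, adjusted p = 0.12) and 0.84 under normexp background correction, so the size of a WNT3A difference depends on the probe, the slide and the background correction.

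The remaining ligands were not called. WNT5B differed by 0.39 (SE 0.30, adjusted p = 0.46), WNT7A by -0.25 (SE 0.20, adjusted p = 0.46) and WNT10B by 0.09 (SE 0.32, adjusted p = 0.88). WNT10B, dim in both groups, came to 1.36 with slide as a block (SE 0.69, adjusted p = 0.44). WNT7B differed by -0.61 (SE 0.29, adjusted p = 0.23) at its brightest probe and by 0.16 and 0.47 at 2 dimmer probes, so its probes differed in sign, and with slide as a block the brightest came to -0.05.

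PORCN encodes porcupine, the acyltransferase that palmitoylates Wnt proteins before secretion, and was lower in the samples labelled CYGB+. It read 11.79, 12.48 and 12.11 in NCE and 10.29, 11.10 and 11.08 in CYGB+, and the groups did not overlap. The difference of -1.30 (SE 0.28, adjusted p = 0.035) was a 2.47-fold lower signal. It was -0.71 with slide as a block (SE 0.42, adjusted p = 0.55), and the NCE array on slide 2 read 11.44, close to the highest CYGB+ array at 11.33. WLS, the carrier that takes acylated Wnt to the surface, read 8.77, 8.48 and 8.75 in NCE and 8.98, 8.67 and 8.37 in CYGB+ (difference 0.01, SE 0.20, adjusted p = 0.99).

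Of 10 frizzled genes, 9 were above background on every array and FZD10 on none. FZD7, a receptor known for β-catenin signalling in stem and tumour cells, was the one called. It read 10.15, 9.92 and 9.62 in NCE and 8.77, 8.25 and 8.28 in CYGB+, with no overlap. Its difference of -1.46 (SE 0.22, adjusted p = 0.011) was a 2.75-fold lower signal, and with slide as a block it was -1.51 (SE 0.32, adjusted p = 0.021).

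The other frizzleds varied less. FZD4 differed by -0.64 (SE 0.21, adjusted p = 0.10) and FZD3 by -0.63 (SE 0.20, adjusted p = 0.096). Without the array that stood apart FZD4 was called, at -0.86 (adjusted p = 0.0086). FZD3 was called, at -0.70 (adjusted p = 0.020), without the 3 arrays of lowest correlation, and was -0.96 with slide as a block (adjusted p = 0.062). Over 19 alternatives each, FZD4 was called under 3 and FZD3 under 2. FZD5 differed by -0.17, FZD9 by -0.37, FZD1 by -0.07 and FZD2 by 0.12, and the last 3 came to -0.80, -0.69 and -0.24 with slide as a block, none of them called. FZD8 at 0.57 and FZD6 at -0.51 were not called and came to 0.06 and 0.09 with slide as a block.

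The co-receptors gave no difference past the test. LRP5 read 10.37, 9.97 and 9.67 in NCE and 9.72, 10.71 and 9.45 in CYGB+, with wide overlap (difference -0.04, SE 0.35, adjusted p = 0.95). LRP6 read 8.43, 8.66 and 8.52 in NCE and 9.04, 8.62 and 8.88 in CYGB+ (difference 0.31, SE 0.17, adjusted p = 0.30).

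Among the secreted inhibitors, DKK1 and DKK3 were above background on every array and the other 7 were not tested. SFRP1, SFRP2, SFRP5 and WIF1 were above background on no array, and DKK2, DKK4 and SFRP4 on 1 or 2 of 15. DKK3, a divergent member of the dickkopf family that is often silenced in tumours, had the largest difference of the 30 genes. It read 12.07, 11.91 and 12.31 in NCE and 9.84, 10.74 and 10.47 in CYGB+, and every CYGB+ array lay below every NCE array.

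The DKK3 difference of -1.74 (SE 0.25, adjusted p = 0.011) was a 3.35-fold lower signal, and with slide as a block it was -2.16 (SE 0.40, adjusted p = 0.00905). A dimmer DKK3 probe read 8.62, 9.46 and 9.20 in NCE and 6.96, 8.15 and 8.24 in CYGB+, a difference of -1.31 (SE 0.38, adjusted p = 0.077) in the same direction. With slide as a block this dimmer probe was at -1.28 (SE 0.52, adjusted p = 0.28). It was called with the replicate block (adjusted p = 0.014) and under normexp background correction (adjusted p = 0.035). DKK1, which blocks LRP5 and LRP6, read 13.18, 13.20 and 13.04 in NCE and 13.41, 13.32 and 13.25 in CYGB+. These groups were close together without overlapping (difference 0.19, SE 0.15, adjusted p = 0.46).

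R-spondins bind LGR receptors and so prevent the ubiquitin ligases RNF43 and ZNRF3 from removing frizzled. LGR4 was lower in the samples labelled CYGB+. It read 10.60, 10.72 and 10.63 in NCE and 9.42, 9.31 and 9.60 in CYGB+, a narrow spread of the replicate means in each group. Single CYGB+ arrays spread more widely, from 8.77 to 10.07, with the arrays of replicate 1 at the ends. The lowest NCE array read 10.46. The difference of -1.21 (SE 0.15, adjusted p = 0.0075) was a 2.31-fold lower signal, and with slide as a block it was -1.33 (SE 0.37, adjusted p = 0.072).

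LGR6 differed by -0.50 (SE 0.19, adjusted p = 0.14) and was not called. RSPO3, the sole R-spondin tested, differed by 0.43 (SE 0.16, adjusted p = 0.14) and by -0.61 with slide as a block (SE 0.65). LGR5, RSPO1, RSPO2 and RSPO4 were above background on no array. RNF43 at 0.36 (SE 0.15, adjusted p = 0.19) and ZNRF3 at -0.04 (SE 0.16, adjusted p = 0.91) were not called.

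Of the intracellular inhibitors, only AXIN1, a scaffold of the destruction complex, was tested. It differed by 0.07 (SE 0.16, adjusted p = 0.81). AXIN2 was above background on 1 of 9 NCE arrays and on no CYGB+ array, with signals of 2.71, 3.69 and 3.77 in NCE and 2.54, 2.52 and 2.46 in CYGB+, all near background. NKD1 was above background on 1 array, and NKD2, which binds dishevelled, on 1 of 9 NCE and 3 of 6 CYGB+ arrays.

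The TCF/LEF factors, which bring β-catenin to DNA, changed in both directions. TCF7 read 6.16, 5.70 and 6.08 in NCE and 7.50, 7.70 and 7.42 in CYGB+, with tight groups far apart. The difference of 1.56 (SE 0.18, adjusted p = 0.0059) was a 2.95-fold higher signal, and with slide as a block it was 1.42 (SE 0.23, adjusted p = 0.0042). The difference was 0.70 under normexp background correction, still called. A second, dimmer TCF7 probe was above background on 2 of the 9 NCE arrays and entered the test through the CYGB+ arrays alone, and its measured difference was 1.86, or 0.33 under normexp (adjusted p = 0.064).

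LEF1 read 7.98, 8.02 and 8.30 in NCE and 9.21, 8.77 and 9.21 in CYGB+, again without overlap. The difference of 0.96 (SE 0.19, adjusted p = 0.027) was a 1.95-fold higher signal. It was 0.91 with slide as a block (SE 0.33, adjusted p = 0.20) and 0.57 with outlier spots kept (adjusted p = 0.33), so its size held between slides while the call did not.

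TCF7L1, which acts mostly as a repressor of β-catenin targets, moved the opposite way to TCF7 and LEF1. It read 9.86, 9.59 and 9.80 in NCE and 8.77, 8.87 and 8.68 in CYGB+. The difference of -0.97 (SE 0.16, adjusted p = 0.014) was a 1.96-fold lower signal and was -1.19 with slide as a block (SE 0.23, adjusted p = 0.011). TCF7L2 read 5.33, 5.12 and 5.24 in NCE and 4.66, 5.11 and 5.23 in CYGB+, with overlap (difference -0.23, SE 0.19, adjusted p = 0.49), and its 2 other probes also overlapped. With slide as a block this probe came to -0.51 (adjusted p = 0.59). The 2 other probes went from -0.33 and -0.73 to -1.23 and -1.77 (adjusted p = 0.22 and 0.18).

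**Figure D4:**
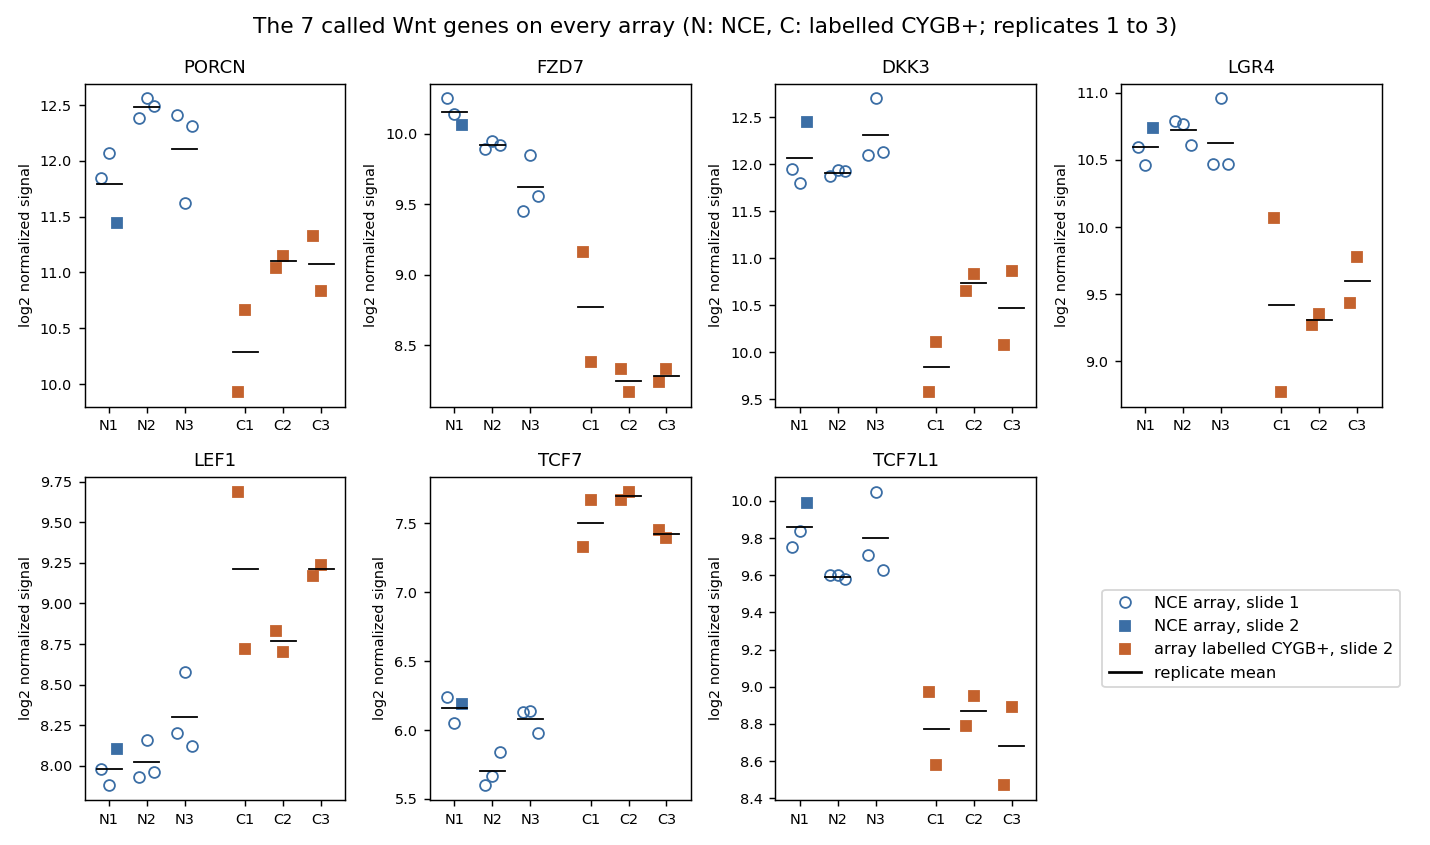
Log2 normalized signal of the 7 called genes on each of the 15 arrays, by biological replicate; open circles are NCE arrays on slide 1, the filled blue square is the NCE array on slide 2, orange squares are arrays labelled CYGB+, and lines are replicate means. In each panel the groups do not overlap, and the slide 2 NCE array lies with the other NCE arrays except for PORCN, where it is the lowest of them.

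With slide as a block 4 of the 30 genes were called, TCF7, TCF7L1, FZD7 and DKK3, against 3.62% of all named genes. Within slide 2 none passed limma's adjusted threshold, against 0.217% of all named genes, and 9 had an unadjusted p below 0.05, as had 9.76% of all named genes. There, the differences were 1.35 for TCF7, 0.96 for LEF1, -1.21 for TCF7L1, -1.62 for FZD7, -2.10 for DKK3, -1.29 for LGR4 and -0.62 for PORCN. All 7 kept their direction, and PORCN moved the most. The 9 genes named above by count are not these 7 with others added, as PORCN was not among them. They took in WNT10B (1.50, dim in both groups), FZD9 (-0.81) and FZD3 (-0.92), which were not called in the main comparison.

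A promoter of each of TCF7, LEF1 and DKK1 is shown because these genes are also known targets of the pathway. The letters TCF/LEF proteins bind can thus be looked for. Of the 56 genes, 39 matched a RefSeq promoter (GRCh38.p14). Where a gene had several, only the last one listed was kept, so its other starts are not covered. The 250 bases before the start were searched on both strands for CTTTG followed by AA, AT, TA or TT. A match was found in 2 of the 39, TCF7 and DKK1, or 5.13%, and in 11.96% of all 35116 promoters. The first share counts a single promoter per gene and the second every listed promoter, so they are not on the same footing. The sequences read 5′ to 3′ on the gene's strand, with matches in capitals. They cover chr5:134123368-134123617 on the plus strand for TCF7, chr4:108166302-108166551 on the minus strand for LEF1 and chr10:52314031-52314280 on the plus strand for DKK1.
TCF7: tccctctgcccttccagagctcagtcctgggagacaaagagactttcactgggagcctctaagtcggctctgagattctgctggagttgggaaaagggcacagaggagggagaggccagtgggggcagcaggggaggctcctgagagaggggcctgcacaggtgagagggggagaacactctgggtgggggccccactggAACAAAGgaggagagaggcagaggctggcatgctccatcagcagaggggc
LEF1: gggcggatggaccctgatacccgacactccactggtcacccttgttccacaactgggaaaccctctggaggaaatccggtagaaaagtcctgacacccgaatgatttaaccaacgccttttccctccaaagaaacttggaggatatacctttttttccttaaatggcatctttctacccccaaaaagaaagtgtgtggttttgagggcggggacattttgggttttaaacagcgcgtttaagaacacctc
DKK1: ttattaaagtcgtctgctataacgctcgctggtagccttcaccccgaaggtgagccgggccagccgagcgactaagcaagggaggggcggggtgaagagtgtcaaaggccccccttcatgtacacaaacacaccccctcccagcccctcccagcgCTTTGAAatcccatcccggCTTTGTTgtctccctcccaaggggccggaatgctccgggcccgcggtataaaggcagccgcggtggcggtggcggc
The TCF7 match begins 50 bases before the start and reads on the opposite strand, and the DKK1 matches begin 95 and 76 bases before it and do not overlap. TCF7 was called higher with 1 match, LEF1 was called higher with none, and DKK1 was not called with 2. A match is a run of letters in this window and says nothing of binding in these cells.

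Of 54 other Wnt pathway genes, 43 were tested, and 3 were called higher and 1 lower, or 9.3%, against 9.06% of all named genes. The 3 called higher include DACT1, which entered the test through the CYGB+ arrays alone. Their median difference was 0.02. With the replicate block 8 were called (18.6%, against 11.8% of all named genes), the same 4 with APC, CCDC88C, CSNK1G1 and PRICKLE2. Of these, CCDC88C went from 0.74 to -0.21 with slide as a block. PRICKLE2 was above background on 5 of the 9 NCE and 2 of the 6 CYGB+ arrays. TLE4, a corepressor bound by TCF/LEF factors, read 5.64, 5.72 and 5.53 in NCE and 7.66, 6.97 and 7.32 in CYGB+ (difference 1.69, SE 0.21, adjusted p = 0.0065). PRICKLE1, of the planar polarity branch, read 7.02, 7.0 and 6.54 in NCE and 8.52, 8.54 and 8.51 in CYGB+ (difference 1.67, SE 0.18, adjusted p = 0.0043).

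DACT1, a dishevelled-binding regulator, read 4.61, 5.07 and 5.15 in NCE and 6.80, 6.39 and 6.13 in CYGB+, a measured difference of 1.50 (SE 0.23). It was above background on 4 of the 9 NCE arrays. As it entered the test through the CYGB+ arrays alone, the value is a description, and under normexp the difference was 0.40 (adjusted p = 0.062). KREMEN2, a receptor through which DKK1 removes LRP6 from the surface, fell from 9.11, 8.47 and 9.39 to 7.65, 7.19 and 7.24 (difference -1.63, SE 0.27, adjusted p = 0.015). With slide as a block PRICKLE1 (1.38, adjusted p = 0.0039) and KREMEN2 (-1.92, adjusted p = 0.015) stayed called, and TLE4 (1.33, adjusted p = 0.11) and DACT1 (1.65, adjusted p = 0.22) did not.

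Genes of the core of the signal chain did not pass the test. APC, a scaffold of the destruction complex, read 6.81, 7.21 and 6.70 in NCE and 7.56, 7.68 and 7.70 in CYGB+, without overlap and just outside the threshold (difference 0.74, SE 0.18, adjusted p = 0.0503). It was called with the replicate block (adjusted p = 0.047) and without the array that stood apart (adjusted p = 0.020), and was 0.69 with slide as a block (adjusted p = 0.16). CTNNB1, which encodes β-catenin, differed by -0.12 (SE 0.26, adjusted p = 0.81) and GSK3B, the kinase that marks it for degradation, by -0.10 (SE 0.21, adjusted p = 0.80). The dishevelled genes, whose products relay the signal from frizzled, differed by 0.01 for DVL1, 0.30 for DVL2 and 0.05 for DVL3, with SE of 0.18 to 0.21. DVL2 came to -0.15 with slide as a block (adjusted p = 0.94).

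Known β-catenin target genes moved in both directions. The list held 33 names for 32 genes, as TNFRSF19 also stands there as TROY, and all 32 were on the array. Of these 24 were tested, with 4 called higher (TCF7, LEF1, BAMBI and ID2), 2 lower (MMP7 and L1CAM) and a median difference of 0.07. That is 25% of the tested genes, against 9.06% of all named genes, and TCF7 and LEF1 are counted here a second time. BAMBI, a decoy receptor of the TGF-β family, read 6.05, 6.13 and 6.34 in NCE and 9.03, 8.18 and 8.80 in CYGB+ (difference 2.50, SE 0.24, adjusted p = 0.0032). ID2, an inhibitor of helix-loop-helix factors, read 6.51, 5.54 and 6.38 in NCE and 8.56, 7.29 and 7.52 in CYGB+ (difference 1.64, SE 0.39, adjusted p = 0.044).

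MMP7, the matrilysin protease, fell from 8.55, 9.31 and 9.19 to 6.98, 6.20 and 6.57 (difference -2.43, SE 0.28, adjusted p = 0.0052). L1CAM, a cell adhesion protein, fell from 7.73, 7.48 and 7.53 to 6.04, 6.30 and 6.14 (difference -1.42, SE 0.16, adjusted p = 0.0051). With slide as a block BAMBI (2.23), MMP7 (-2.56) and L1CAM (-1.72) were still called, and ID2 was at 0.94 (SE 0.51, adjusted p = 0.49). CCND1 (-0.28, adjusted p = 0.51) and MYC (-0.10, adjusted p = 0.75), often cited targets, were not called. CCND1 changed sign with slide as a block, to 0.64 (SE 0.56, adjusted p = 0.78). Of the targets that feed back on the pathway, AXIN2, LGR5, NKD1 and NOTUM were above background on at most 1 array, while RNF43, ZNRF3 and DKK1 were so on all 15 and were not called.

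**Figure D5:**
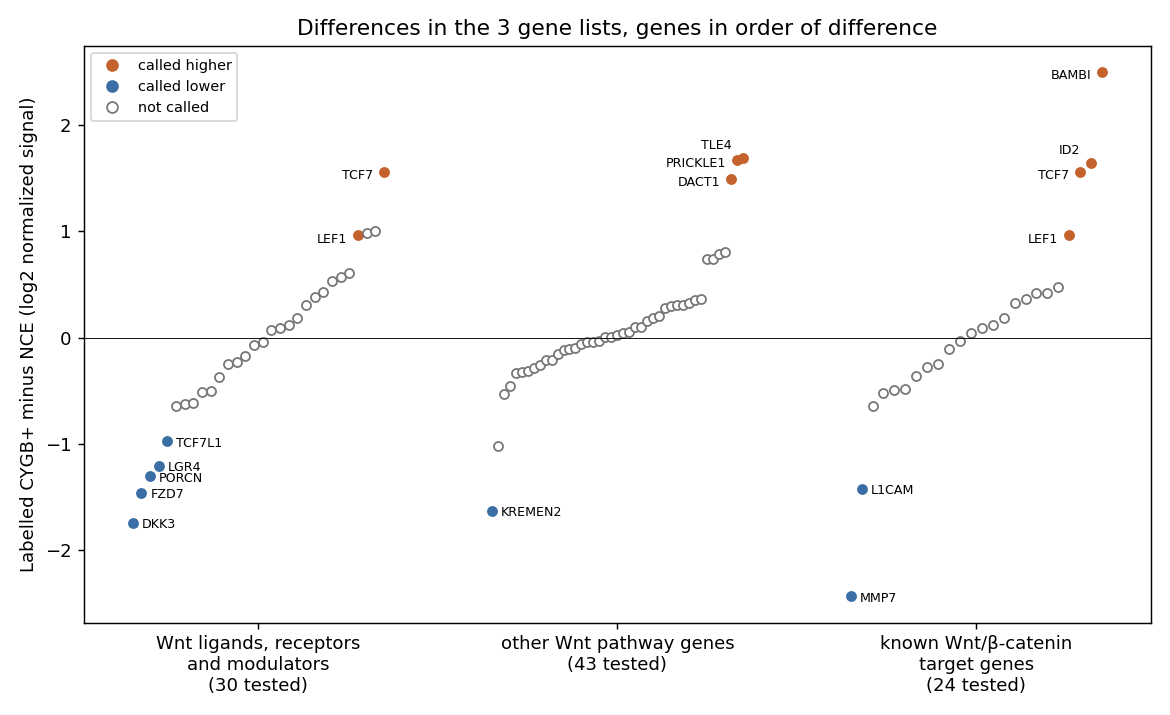
Difference between samples labelled CYGB+ and NCE (log2 normalized signal, vertical axis) for the tested genes of 3 lists, each in order of difference along the horizontal axis; orange marks genes called higher and blue genes called lower. The 30 Wnt genes hold 7 called genes, the 43 other pathway genes 4 and the 24 target genes 6, of which TCF7 and LEF1 stand in both the first and the last list.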

How the data were processed

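The authors deposited Agilent Feature Extraction 10.7.3.1 scanner files, in which the green processed intensity was background-subtracted and dye-normalized against the red channel (its content is not given in the labels) before the files were deposited by the authors. Per the file headers, the array design is hg19. Outlier-flagged spots were left out, log2 values quantile normalized, array repeats averaged per replicate, and 3 replicates per group tested with limma 3.58.1 in R 4.3.3. Arrays carry no read depth; their number limits precision. Of 27310 RefSeq probes, 25422 were named through RefSeq tables. A gene's representative probe was above background on most arrays, then brightest. Called genes and members fixed by role are given per replicate. The authors' deposited table of log2 values (15031 probes, probe-centred; the methods name quantile normalization, and the centring is not stated) served as an alternative. Members, lists and tests were chosen with earlier results of these data known. Deviations from the group mean correlated at 0.22, 0.28 and 0.31 for same-numbered replicates and at -0.50 to 0.22 for other pairs. These ranges meet, so pairing by replicate number is not settled. The main fit does not use it, and the replicate block is an alternative. RNA was extracted on 3 occasions, but whether from separate cultures is not stated, so p-values may reflect technical spread. Scripts were tested on simulated data. Alternatives were scaling, background correction, filters, slide, array repeats, replicate block, the methods' t-test and left-out replicates or arrays.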

Additional observations from a re-analysis of the deposited data

Results flagged for a closer look

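The red channel, which no comparison used and whose content the labels do not give, carried signal well above background on all 15 arrays for 26 of the 56 Wnt genes, a signal in data outside the main measurement.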

How the results depend on the processing

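All 7 called Wnt genes kept their direction under every alternative that measured them. Calls fell from 7 to 4 with slide as a block, 0 within slide 2 (9 at an unadjusted p below 0.05), 3 by the methods' t-test and 4 in the deposited value table, which measured 4 of the 7; leaving out a replicate gave 3 (without NCE replicate 2) to 7. LGR4, TCF7 and DKK3 stayed called without any replicate, FZD7 was lost without NCE replicate 2 (adjusted p = 0.055), TCF7L1 without each NCE replicate, LEF1 without each replicate other than CYGB+ replicate 2, and PORCN without each other than CYGB+ replicate 1. By representative probe, the replicate block changed no other call than WNT4 and WNT10A among the Wnt genes, which gave 9 calls. Calls among the other pathway genes went from 4 to 8 of 43, against 11.8% of all named genes. Over all probes, 1847 calls became 1196 with no filter, 655 with slide as a block, 37 within slide 2, 4754 on single arrays, 657 by the methods' t-test, 2597 with the replicate block, 3692 and 4885 without 1 or 3 low-correlation arrays (chosen after seeing the data), and 391 to 1654 without a replicate (lowest without NCE replicate 2). By representative probe of the Wnt genes, differences that changed sign with slide as a block and within slide 2 were those of WNT10A (-0.031, -0.23), WNT3 (-0.10, -0.033), WNT4 (-0.032, -0.056), RSPO3 (-0.61, -0.51), FZD2 (-0.24, -0.37, also -0.23 with outlier spots kept) and FZD6 (0.093, 0.14). Small differences changed sign under normexp (AXIN1 -0.026, FZD1 0.070), 75th percentile scaling (LRP5 0.0029) and without 1 or 3 arrays (LRP5 0.12, 0.073), at the other WNT7B probes (0.16, 0.47) and without a replicate (WNT10B -0.22 to 0.40, AXIN1 -0.012 to 0.15, FZD1 -0.46 to 0.14, LRP5 -0.42 to 0.21). None of these was called under either setting, and the cause was not tested. Scan time coincided with slide and was not run separately. Genes near background have the least certain differences.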
